A study of Mus musculus with 15 samples.

Results

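Genes that cells induce in response to interferon were followed on 2-colour arrays of mouse brain RNA: Ifi27, Tap1, Irf7, Ly6e, Irf1, Samhd1, Trim25, Mx2, Ifi35 and Eif2ak2, 10 in all. Each array set RNA of O377 mice, homozygous for an altered allele of the lens crystallin gene Crybb2, against RNA pooled from wild-type mice. The mutant channel drew on 5 numbered brains and the wild-type pool on 4. Mutant RNA was labelled with Cy5 on 7 arrays and with Cy3 on the other 8. Strain background, age and sex are not given in the labels. Nor do the labels say whether the 5 mutant brains were pooled or, if not, which went onto each array. A p-value here therefore reflects how 15 arrays varied, perhaps for technical reasons, and leaves out the spread of the single wild-type pool. The series addresses whether the altered allele matters in the brain.

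The members were taken from the platform's annotation by gene symbol, and the group was chosen by measured values, since Ifi27 and Tap1 had stood out in the contrast of the dye orientations described below. They had 11 probes of 20205 on the array, 2 of them for Samhd1. All 11 passed the filter on missing values (4 arrays or more per orientation) and were among the 8058 probes tested. The values of the 10 genes in that contrast are therefore given as a description, and where calls in it are counted below, they support nothing.

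Interferons are secreted proteins that warn cells of infection. They bind receptors on the cell surface, Janus kinases then phosphorylate STAT proteins, and STAT and IRF factors switch on a large set of effector genes through short DNA elements in their promoters. In the brain, neurons, glia and vessel cells all keep a low tonic level of this program and raise it during viral infection, injury and ageing. Among the genes followed here, Irf7 and Irf1 encode transcription factors of the response. Tap1 encodes a peptide pump for antigen presentation on class I molecules. Eif2ak2 encodes the double-stranded RNA sensor PKR, which stops translation. Mx2 and Samhd1 encode antiviral effectors, a dynamin-like GTPase and a hydrolase of deoxynucleotides. Trim25 encodes a ubiquitin ligase of RNA sensing. Ifi27, Ifi35 and Ly6e encode a small mitochondrial protein, a cytosolic adaptor and a surface protein anchored in the membrane by lipid.

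The deposited value is 1 log ratio per probe and array, taken as log2, and its direction is not stated. It can run Cy5 over Cy3 or mutant over wild type. Each probe was therefore described by 2 numbers. The dye-switching component is the mean of arrays with the mutant in Cy5 minus the mean of arrays with the mutant in Cy3, divided by 2. It is the genotype difference, negative meaning lower in the mutant, if ratios run Cy5 over Cy3. The shared component averages both means, and it is the genotype difference if ratios run mutant over wild type. Under either reading the other component is an effect of dye. Ratios give no level, so how strongly a gene was expressed is unknown, and in RNA of whole brains fewer cells of a type and less RNA per cell cannot be told apart.

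The promoters of 7 of the 10 genes were found in RefSeq (build GRCm38.p6), in 8 windows that run from 250 bases before to 50 bases after the start. The windows of Tap1 and Irf7 are shown because these genes, with Ifi27, carried the largest differences, and that of Irf1 because it holds a gamma-activated sequence upstream of the start. Each is printed from 5′ to 3′ on the gene's own strand and leaves out bases within the span of any RefSeq gene, which for Irf7 itself begins upstream of the start used. The Tap1 stretch is the whole space of 225 bases between Tap1 and its neighbour Psmb9, an immunoproteasome gene. Capitals mark the letters TTCNNNGAA, the core of the gamma-activated sequence, an interferon response element.
Tap1, chr17:34187331-34187555, plus strand: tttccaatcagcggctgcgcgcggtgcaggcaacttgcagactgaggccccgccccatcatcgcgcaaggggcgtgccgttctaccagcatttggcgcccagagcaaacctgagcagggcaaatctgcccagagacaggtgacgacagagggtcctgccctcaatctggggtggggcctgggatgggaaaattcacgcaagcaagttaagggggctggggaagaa
Irf7, chr7:141266500-141266674, minus strand: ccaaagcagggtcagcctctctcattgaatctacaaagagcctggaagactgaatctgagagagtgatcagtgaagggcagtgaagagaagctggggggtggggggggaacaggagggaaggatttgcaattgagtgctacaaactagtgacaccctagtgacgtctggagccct
Irf1, chr11:53769764-53770013, plus strand: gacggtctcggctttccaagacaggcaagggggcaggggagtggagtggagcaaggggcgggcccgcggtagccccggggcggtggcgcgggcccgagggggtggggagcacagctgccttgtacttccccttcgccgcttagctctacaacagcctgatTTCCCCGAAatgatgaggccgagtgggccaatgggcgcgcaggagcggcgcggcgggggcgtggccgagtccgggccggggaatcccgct

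The letters TTCNNNGAA, which read the same on both strands in their fixed positions, occurred in 4 of the 8 windows, those of Irf1, Samhd1, Ifi35 and Eif2ak2. Of all 32851 promoter windows of this length, 8.3% held them. The interferon-stimulated response element was searched as GAAANNGAAA on both strands. It occurred in 1 window, that of Eif2ak2, and in 3.44% of all windows. This match in Eif2ak2 and the TTCNNNGAA of Ifi35 lay after the start. The windows of Tap1 and Irf7 held neither string of letters. A match describes letters and does not show that a factor binds. A missing match does not show that a response element is absent, since only these exact letters in these windows were searched.

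Ifi27 had the smallest standard error of the dye-switching component among the 11 probes. With the mutant in Cy5 its log ratios ran from -1.02 over a median of -0.76 to -0.49, and with the mutant in Cy3 from 0.40 over 0.88 to 1.07. All 7 values of the first orientation lay below 0, all 8 of the second lay above 0, and the orientations did not overlap. The means were -0.77 ± 0.20 (SD, n = 7) and 0.79 ± 0.25 (SD, n = 8). The dye-switching component was -0.78 ± 0.06 (SE), a 1.72-fold difference. Ifi27 was the 1 member probe of 11 whose orientations did not overlap, beside 0.906% of all tested probes. The shared component was 0.01, in a 95% interval of -0.12 to 0.15 (limma adjusted p = 0.958).

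**Figure D1:**
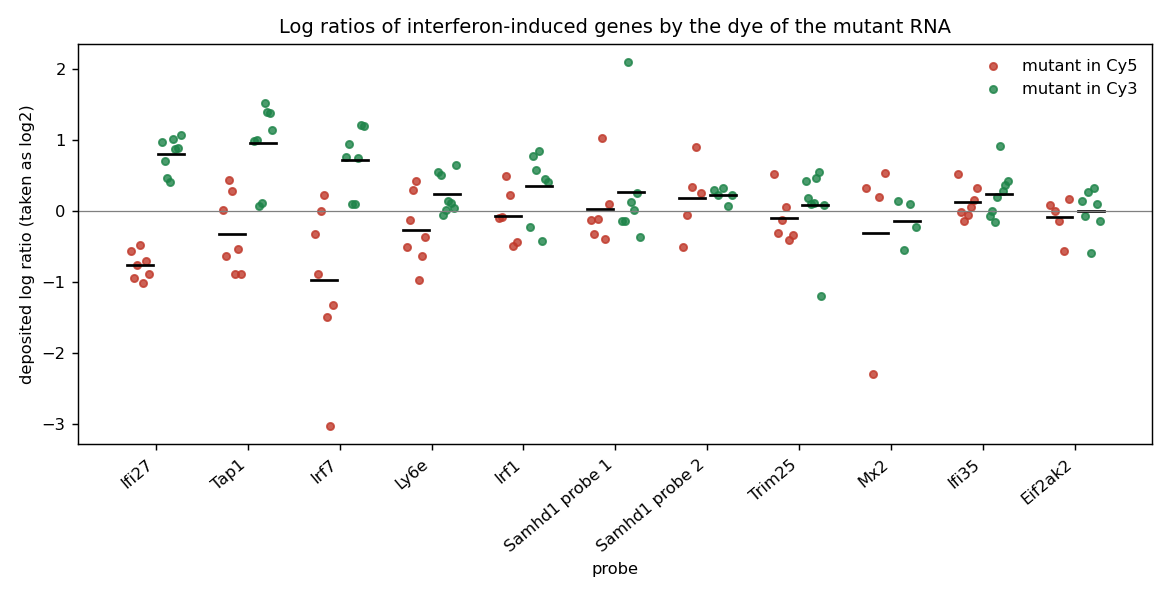
Deposited log ratio (taken as log2) of the 11 probes on each array, by the dye of the mutant RNA. Points are arrays and bars are means; Ifi27 is the probe whose 2 sets of arrays do not overlap, from -1.02 to -0.49 and from 0.40 to 1.07.

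Tap1 was split in the same direction with a wider spread. Its log ratios ran from -0.90 over -0.54 to 0.42 with the mutant in Cy5 and from 0.07 over 1.07 to 1.51 with the mutant in Cy3. Only 4 of 7 values of the first orientation were below 0, while 8 of 8 of the second were above 0, and the orientations overlapped. The dye-switching component was -0.64 ± 0.13 (SE), 1.55-fold, from means of -0.32 ± 0.55 (SD, n = 7) and 0.95 ± 0.56 (SD, n = 8). The shared component was 0.31, with a 95% interval from 0.03 to 0.60, an unadjusted p of 0.0324 and a limma adjusted p of 0.504. An additional probe, annotated to both Tap1 and Psmb9, had a value on 1 array and was not used.

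Irf7, the factor that amplifies the type I interferon response, had the largest component in size and the second widest error. Its log ratios ran from -3.03 over -0.89 to 0.23 with the mutant in Cy5 and from 0.09 over 0.75 to 1.21 with the mutant in Cy3. Of 7 values in each orientation, 6 were below 0 in the first and 7 above 0 in the second, with a small overlap. The dye-switching component was -0.85 ± 0.21 (SE), 1.8-fold, and the shared component was -0.13 (95% interval from -0.57 to 0.30, limma adjusted p = 0.849). Its lowest value, -3.03, came from array 10, which had the widest interquartile range of log ratios (0.892). Without array 10 the dye-switching component was -0.68, smaller in size than that of Ifi27 (-0.79). With arrays scaled to one width it was -0.77, beside -0.81 for Ifi27.

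Ly6e, a surface protein that restricts some viruses and aids the entry of others, had values from -0.97 over -0.37 to 0.42 and from -0.06 over 0.12 to 0.64. Its orientations overlapped widely. The dye-switching component was -0.26 ± 0.10 (SE), 1.19-fold. It was -0.14 with array weights, -0.15 without arrays 9 and 10, -0.17 without arrays 9 to 12 and -0.43 without arrays 5 to 8. Irf1, the transcription factor whose promoter is shown above, had a component of -0.21 ± 0.12 on 13 arrays, 4 of 6 values below 0 with the mutant in Cy5 and 5 of 7 above 0 with it in Cy3.

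The antiviral effectors and sensors were nearer to 0. Eif2ak2 had a dye-switching component of -0.05 (95% interval from -0.24 to 0.15), Ifi35 of -0.06 (-0.23 to 0.11) and Trim25 of -0.10 (-0.35 to 0.16). The 2 Samhd1 probes stood at -0.12 (-0.50 to 0.26) on 13 arrays and -0.02 (-0.27 to 0.23) on 10 arrays. Mx2 had values on 8 arrays only and stood at -0.09 (-0.72 to 0.55), an interval that reaches nearly the size of Ifi27. The intervals of Eif2ak2, Ifi35 and Trim25 do not reach the size of Ifi27.

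**Figure D2:**
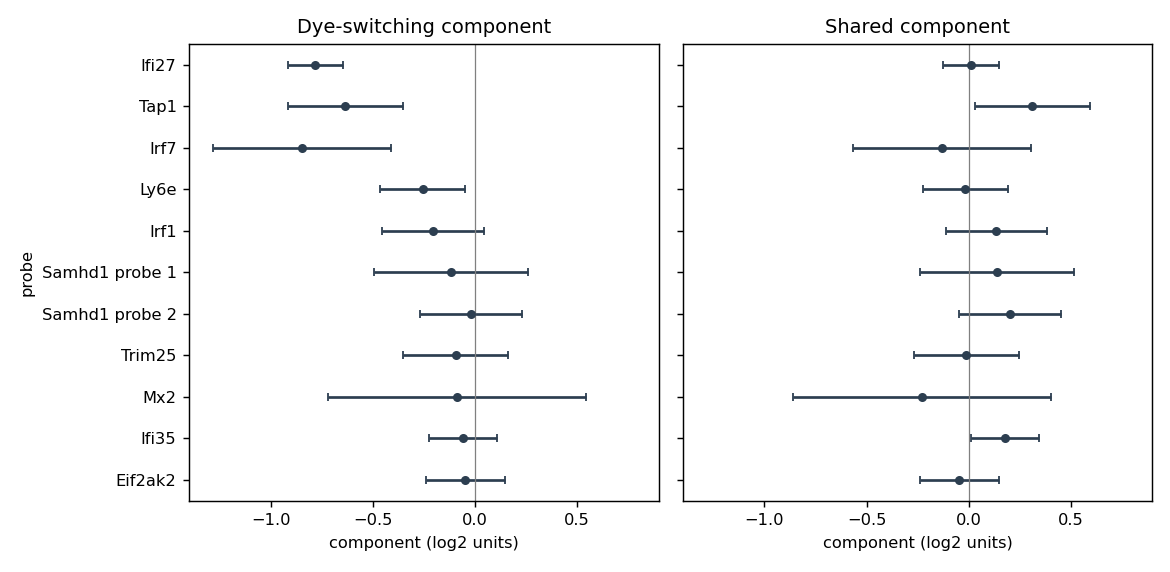
Dye-switching component (left) and shared component (right) of the 11 probes, in log2 units, with 95% intervals from the limma fit. On the left Ifi27 (-0.78), Tap1 (-0.64) and Irf7 (-0.85) have the lowest values, in the contrast that chose the group. The intervals of Tap1 and Irf7 overlap that of Ly6e, and the interval of Ifi27 overlaps that of Mx2. On the right Tap1 has the highest value, 0.31.

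By the limma fit over all 8058 probes, 2 of the 11 member probes, Ifi27 and Tap1, passed the adjusted threshold of 0.05 in the dye-switching component, both on the negative side. Of all tested probes 0.645% passed on either side and 0.31% on the negative side. At an unadjusted p under 0.05, 4 of the 11 did, beside 9.57% of all probes. Since this contrast chose the group, nothing is read from these counts. Just inside the threshold was Tap1 (-0.64 ± 0.13) and just outside it Irf7 (-0.85 ± 0.21). All 11 coefficients were negative, with a median of -0.12, beside 47.2% and a median of 0.01 over all probes. They stayed so when arrays were centred on the median or scaled to one width, but 6 of the 11, those of Samhd1, Trim25, Mx2, Ifi35 and Eif2ak2, turned positive under at least 1 other alternative. Without any 1 of arrays 2, 3, 4 or 9 to 15 Tap1 missed the threshold, and without array 6 Irf7 passed it.

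In the shared component, which did not choose the members, 0 of 11 member probes passed in limma, as did 0% of all probes. At an unadjusted p under 0.05 there were 2 of 11, Tap1 and Ifi35, beside 9.49% of all probes. Ifi35 was at 0.18 ± 0.08 (SE), with a limma adjusted p of 0.516. Robust regression called 0 member probes in this component, beside 1.33% of all probes. The median over the 11 was 0.01, beside -0.00 over all probes, with 6 of them positive.

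The differences of Tap1, Irf7 and Ly6e were not spread evenly over the arrays. Arrays are numbered here in accession order, and each run of 4 (the last of 3) held both orientations. The labels do not name such runs as a batch or tie them to animals. Within a run, the component is again the Cy5 mean minus the Cy3 mean, divided by 2. For Tap1 it was -0.65 in arrays 1 to 4, 0.13 in arrays 5 to 8, -1.09 in arrays 9 to 12 and -1.07 in arrays 13 to 15. For Irf7 these values were -0.73, 0.01, -1.50 and -1.27. For Ly6e they were -0.42, 0.19, -0.46 and -0.35. All 3 genes thus stood between 0.01 and 0.19 in arrays 5 to 8 and below 0 in the other runs.

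Ifi27 kept its side in every run, with the smallest size in the same one. Its run values were -0.79, -0.53, -0.90 and -0.93. In arrays 5 to 8 its mean log ratio was -0.63 on Cy5 arrays and 0.43 on Cy3 arrays (named by the dye of the mutant). There Tap1 averaged 0.35 and 0.09, so neither orientation carried the split seen elsewhere. Ifi35 ran through 0.15, -0.06, -0.25 and -0.03. Trim25 stood at -0.10, -0.07 and -0.44 in the first 3 runs and lacked Cy5 values in the last.

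**Figure D3:**
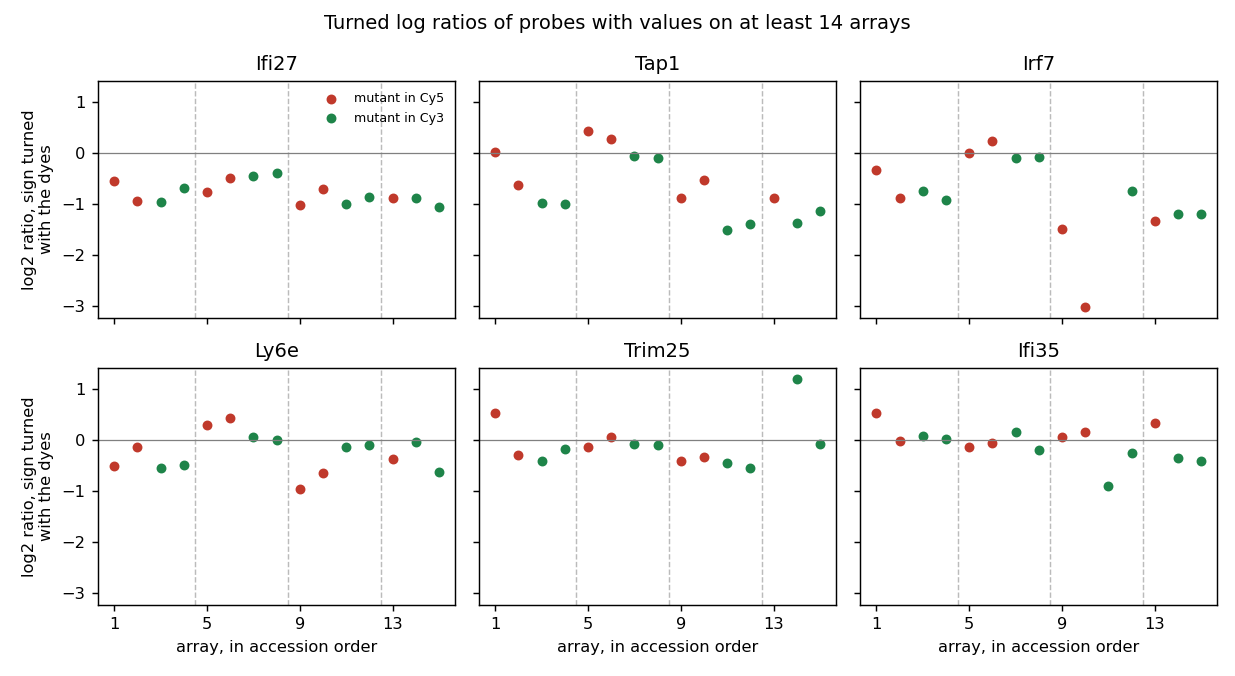
Log2 ratio of each probe with values on at least 14 arrays, by array in accession order, with the sign of arrays with the mutant in Cy3 turned so that the dye-switching component has the same sign in both orientations. Dashed lines divide runs of 4 arrays; Tap1, Irf7 and Ly6e lie between -0.11 and 0.42 in arrays 5 to 8, while Ifi27 is below 0 on all 15 arrays.

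The other probes past the threshold were chosen on all 15 arrays, arrays 5 to 8 included, so their run values are a description. Over the 47 of them with values in every run, the median component, counted on each probe's own side, was 0.36 in arrays 1 to 4, 0.45 in arrays 5 to 8, 0.50 in arrays 9 to 12 and 0.49 in arrays 13 to 15. The smallest of a probe's 4 run values fell in arrays 5 to 8 for 14 of the 47 and in arrays 1 to 4 for 18. Interquartile ranges of all log ratios ran from 0.389 to 0.47 in arrays 5 to 8. In arrays 9 to 12 they ran from 0.386 to 0.892. The run with the largest Tap1 and Irf7 values thus also held the widest arrays, 9 and 10 (0.731 and 0.892). Tap1 was at -0.90 and -0.54 on these arrays and Irf7 at -1.50 and -3.03. With the sign turned for the mutant in Cy3, Tap1 was at -1.51 and -1.39 on arrays 11 and 12 (0.496 and 0.386). Irf7 had no value on array 11 and was at -0.74 on array 12. With arrays scaled to one width, the component over all 15 arrays was -0.65 for Tap1, -0.77 for Irf7 and -0.22 for Ly6e. The run values were not refitted in that way. The part of array width, or of which mutant RNA lay on which array, in the run values was not tested.

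Whether the members also deviated together within 1 orientation was examined over all pairs of member probes of different genes with at least 6 shared arrays, 62 comparisons in all. Correlations were above 0 in 40 of them. By exact two-sided permutation tests over arrays 8 had an unadjusted p under 0.05 and 0 had an adjusted p under 0.05. The same shares over pairs of all tested probes were not computed, so nothing is read from these counts. The tests also take arrays as exchangeable, while the size of the contrast changed between runs, as described above. The smallest p belonged to a negative pair, Ly6e and the first Samhd1 probe over 7 arrays with the mutant in Cy3 (r = -0.698, exact permutation p = 0.00813, adjusted p = 0.215, rho = -0.964, p = 0.00278, adjusted p = 0.172). Another of the 8 was also negative, that of Ifi27 and the same Samhd1 probe (r = -0.832, exact permutation p = 0.049, adjusted p = 0.352; rho = -0.571, p = 0.200, adjusted p = 0.539). Without the 2 arrays farthest from the median of Ly6e or Ifi27, r was -0.643 for the first of these pairs and 0.376 for the second. Ifi27 and Tap1 had Pearson r = 0.882 (exact permutation p = 0.0116, adjusted p = 0.215) and Spearman rho = 0.619 (p = 0.115, adjusted p = 0.446) over the 8 arrays with the mutant in Cy3. Over the 7 with the mutant in Cy5, r was 0.756 (exact permutation p = 0.0657, adjusted p = 0.352) and rho 0.750 (p = 0.0663, adjusted p = 0.411). Without the 2 arrays farthest from the Ifi27 median, r was 0.255 and 0.562, over the narrower range of Ifi27 that is left. The highest r between Irf7 and Tap1, 0.901 with the mutant in Cy3 (exact permutation p = 0.0185, adjusted p = 0.215; rho = 0.607, p = 0.167, adjusted p = 0.539), was 0.213 without 2 arrays in the same way. Over 6 arrays with the mutant in Cy5, Irf1 had r = 0.921 with Ly6e, 0.892 with Tap1 and 0.814 with Irf7. Their exact permutation p were 0.0167, 0.0208 and 0.0431 (adjusted p = 0.215, 0.215 and 0.352). Without 2 arrays in the same way these r were 0.936, 0.734 and 0.701. With the mutant in Cy3 the same pairs had r = -0.095, -0.145 and 0.042.

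The genes most like Ifi27 over the arrays were mostly others with a large dye-switching component. Among 4190 probes with 1 symbol and at least 12 shared arrays, the highest Pearson correlations of log ratios were those of Smim7 (0.937), Pigf (0.933), Nt5c2 (0.933), Pnliprp1 (0.921) and Lpl (0.916). Tap1 ranked 8 and Irf7 ranked 15. With the mean of each orientation subtracted, Tap1 ranked 1 for Ifi27 (0.827), followed by Hp1bp3 (0.770), Lmbrd1 (0.736), Coa4 (0.710) and Itgb3 (0.706). The subtraction removes only the average of the contrast that chose the group. Changes in the size of that contrast between runs of arrays, described above for Ifi27 and Tap1, remain. The rank of Tap1 is therefore not independent of how the group was chosen. That rank depended on array width: with arrays first scaled to one width Tap1 ranked 36 (0.634). Without that scaling Irf7 ranked 152 (0.483) and Ly6e 156 (0.480) for Ifi27, and the first Samhd1 probe ranked 4186 (-0.719), near the bottom. That Samhd1 probe had single outlying values, 2.09 on array 7 and 1.02 on array 9.

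For Tap1 the nearest genes by log ratio were Ewsr1 (0.893), Ifi27 (0.884), Fyttd1 (0.879), Irf7 (0.867) and Unc5a (0.849). With orientation means subtracted they were Ewsr1 (0.834), Ifi27 (0.827), Lmbrd1 (0.775), Rnf213 (0.757) and Fyttd1 (0.748), with Irf7 at rank 12 (0.700) and Ly6e at rank 77 (0.558). The first Samhd1 probe ranked 4158 (-0.624). With the mutant in Cy3 its correlation with Tap1 was r = -0.808 but rho = 0.036, and r = 0.664 without the 2 arrays farthest from the Tap1 median. With arrays scaled to one width, Irf7 ranked 2 for Tap1 (0.834) and Ifi27 ranked 50. These correlations share arrays and 1 wild-type pool and are given as a description.

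In the dye-switching component, genes of the pathway outside the group were centred near 0. The group was drawn from the same pathway with this contrast in view, so the genes left are no independent comparison. In 4 lists together, 214 genes were sought, 96 had a probe with 1 symbol, and 34 genes with 37 probes were tested. In limma 0 of the 37 probes passed in the dye-switching component and 0 in the shared component, beside 0.645% and 0% of all probes. At an unadjusted p under 0.05 there were 3 and 4, beside 9.57% and 9.49% of all probes, so these counts set the lists apart in neither component. Robust regression called 1 in each, Adar and Trim37, beside 2.53% of all probes in the dye-switching and 1.33% in the shared component. Of the 37, 16 had a negative dye-switching component, with a median of 0.01. The 4 with an unadjusted limma p under 0.05 in the shared component were Psmb10 (0.33), Trim37 (0.24), Rela (0.18) and Pml (-0.23). Values of single genes in the lists below are of the dye-switching component unless named otherwise.

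The list of other interferon-induced genes had 14 genes tested, with 15 probes and a median of 0.01. The lowest was Lgals9, a galectin, at -0.27 ± 0.11 (SE, adjusted p = 0.461 by limma). The highest was Adar, the RNA-editing enzyme, at 0.76 ± 0.25 (adjusted p = 0.351) on a probe with values on 8 arrays, and its other probe, with values on 15, was at -0.03 ± 0.06. Ifitm3, which blocks virus entry, was at 0.05 ± 0.12. Isg15, the Ifit family, Rsad2, Oas genes and Bst2 were among those with no tested probe.

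In antigen presentation on class I, the pathway that Tap1 feeds, 7 genes were tested with a median of 0.04. They ran from -0.06 ± 0.07 for the chaperone Canx to 0.25 ± 0.11 for the immunoproteasome subunit Psmb10 (limma adjusted p = 0.527), opposite in sign to Tap1. In the shared component, the genotype difference under the other reading, Psmb10 was at 0.33 ± 0.11 (limma adjusted p = 0.424). That is the same sign as Tap1 (0.31). B2m, the light chain of every class I molecule, was at -0.00 ± 0.06, and Psmb8, another immunoproteasome subunit, at 0.10 ± 0.07.

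Among receptors and signalling genes 7 were tested, with a median of 0.04. They ran from -0.44 ± 0.48 for the kinase Jak1 (limma adjusted p = 0.814) to 0.13 ± 0.12 for Stat3 (adjusted p = 0.782). The receptor gene Ifnar2 had 2 probes, at 0.07 ± 0.09 and -0.03 ± 0.06. Relatives of the members, 7 genes with 8 probes, ran from -0.10 ± 0.06 for the transporter Abcb10 (adjusted p = 0.605) to 0.08 ± 0.16 for the RNA editor Adarb1 (adjusted p = 0.914), with a median of -0.02.

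**Figure D4:**
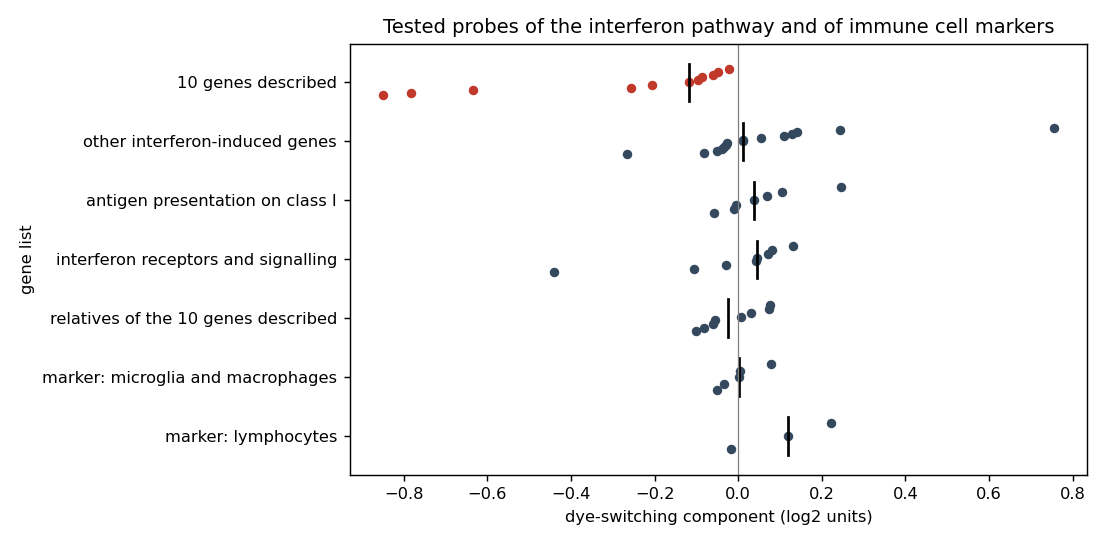
Dye-switching component (log2 units) of each tested probe in the group described, in 4 lists of the interferon pathway and in 2 lists of immune cell markers; black lines are list medians. The 11 member probes lie between -0.85 and -0.02, with a median of -0.12, and the medians of the other lists lie between -0.02 and 0.12. Single probes of the 4 pathway lists run from -0.44 to 0.76, a range that holds all member probes except those of Ifi27, Tap1 and Irf7.

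Markers of other cells were measured beside these genes. Of 19 genes for microglia and macrophages, 5 were tested, with components from -0.05 for C1qb to 0.08 for Lyz2 and a median of 0.00, and 0 passed in limma in either component, with 0 at an unadjusted p under 0.05. Of 16 lymphocyte genes, 3 were tested (Cd79a -0.02, Cd3d 0.12, Cd74 0.22). Of 13 endothelial genes 3 were tested, with components from -0.14 to 0.07. The red cell gene Alas2 was at -0.01. Choroid plexus and meninges had 3 genes tested, with a median of 0.05. Astrocyte genes had 6 probes tested, 5 of them negative, with a median of -0.05, and oligodendrocyte genes had 3, all negative, with a median of -0.04 and the lowest value, -0.22, on 1 of 2 Mbp probes (limma adjusted p = 0.419). None of these lists had a probe past the threshold in either component, beside 0.645% of all tested probes in the dye-switching and 0% in the shared component. At an unadjusted p under 0.05 in the dye-switching component there was 1 probe each among endothelial (Egfl7, -0.14), astrocyte (Glul, 0.46, its other probe -0.01) and oligodendrocyte (Mbp) genes, and 0 among those of lymphocytes, blood and choroid plexus. In the shared component there was 1, Olig1 (-0.18). Of all tested probes 9.57% had an unadjusted p under 0.05 in the dye-switching and 9.49% in the shared component. Among 9 neuronal genes Thy1 passed (-0.53 ± 0.11, limma adjusted p = 0.0276), with a list median of 0.02. Gap43 was at -0.19 (adjusted p = 0.35). Most markers had no tested probe, so the part of cell composition in the values of Ifi27, Tap1 and Irf7 was not tested.

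Across the series, between 7843 and 10515 probes had a value per array. The Crybb2 probe itself had a dye-switching component of -0.01 ± 0.07 (SE, limma adjusted p = 0.982) and a shared component of -0.00 ± 0.07 (adjusted p = 0.998), and since where it lies relative to the altered part is not given, it checks neither labels nor allele.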

How the data were processed

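Values are the log ratios the authors deposited, used here as log2. The base is not stated, and 2 was taken since the largest value in size, 12.33, exceeds the natural log (11.09) of the largest ratio of a 16-bit scanner. Background correction, normalization and the filter that removed spots are not given in the sources used here. Deposited array medians ran from -0.00618 to 0.0165, which shows prior centring. Probe symbols came from the platform annotation (11723 probes with 1 symbol, 806 with several, 7676 with none), and 86 were updated through gene identifiers to GRCm38.p6.

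Probes with values on at least 4 arrays of each orientation were fitted with limma 3.58.1 under R 4.3.3, with dye orientation in the model, eBayes moderation and Benjamini-Hochberg adjustment over all tested probes. The fit was tested on simulated data. The simulated noise was normal and independent between arrays, with no runs, shared brains or wider arrays, so that test covers the calculation only. The number of arrays limits the precision.

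The members and lists were chosen with earlier results of these data known. Named outside the members are, per pathway list, the probes of highest and lowest component and those past the threshold, Crybb2, and the 5 genes most like Ifi27 and Tap1. Ifitm3, B2m, Psmb8, Ifnar2, Psmb9, Pml, Rela and the markers were chosen after their values were seen. Exact permutation tests used scipy 1.17.1, and figures matplotlib 3.10.9.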

Additional observations from a re-analysis of the deposited data

Results flagged for a closer look

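For every member probe and either dye of the mutant, 22 sets of arrays in all, the values were checked for a single array far from the rest, and 4 sets held one. The gap to the nearest value had to exceed Dixon's 95% limit as a share of the range, which chance passes in about 1 in 20 sets. The first Samhd1 probe read 1.02 on array 9 among Cy5 arrays (named by the dye of the mutant), above a next value of 0.09. It also read 2.09 on array 7 among Cy3 arrays, above a next value of 0.24. Trim25 read -1.20 on array 14 among Cy3 arrays, below a next value of 0.07. Mx2 read -2.30 on array 5 among its 4 Cy5 arrays, below a next value of 0.19. No array held more than 1 of these values.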

How the results depend on the processing

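The alternatives that leave out a run of 4 arrays were added once values were known. The limma fit called 52 probes in the dye-switching component. Refits gave totals of 36 to 49 with 1 array left out, 33 without arrays 1 to 4, 33 without arrays 13 to 15 and 204 with robust regression. In the shared component that regression gave 107 in place of 0. Among other interferon genes robust regression called 1 in each component instead of 0. Since the dye-switching contrast chose the group, member calls in it describe the settings and support nothing. The member count of 2 fell to 1, Ifi27 alone, with array weights, with an ordinary test per probe, without arrays 9 and 10, and without arrays 1 to 4, 9 to 12 or 13 to 15, and lay between 1 and 3 with 1 array left out. Fits with arrays left out rest on fewer values, and for the others the cause was not tested. Ifi27 passed under all 31 alternatives, with components from -0.87 to -0.74. Tap1 kept its side under all 31, from -0.91 to -0.47, and passed in 15. Irf7 did so from -1.19 to -0.59 and passed in 5, among them scaling to one width and leaving out arrays 5 to 8. With each run of 4 as a random block (correlation 0.0215) the member count stayed at 2. Shared components of members passed under none.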
